A study of Oryza sativa Japonica Group with 22 samples.

Results

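Rice seeds that carried the sunflower seed albumin gene HaSSA were set against seeds of the parental line, across all genes of the rice genome. The comparison used the 3 libraries labelled SSA and the 4 libraries labelled Taipei, 7 of the 22 libraries of the series, chosen by the line named on each library. SSA plants carried HaSSA behind the endosperm promoter of a wheat glutenin gene, with a signal that keeps the protein in the endoplasmic reticulum (ER), and descended from a line transformed by particle bombardment. Taipei plants (Taipei 309, Oryza sativa ssp. japonica) carried no transgene. Each library came from the milkripe seeds of an individual plant, harvested 10 days after flowering. The other lines, used to see where SSA stood among them, were CGSxSSA (4 libraries, AtD-CGS with HaSSA), SATxSSA (3 libraries, EcSAT with HaSSA), CGS (5 libraries, AtD-CGS, a cystathionine gamma-synthase of Arabidopsis thaliana) and SAT (3 libraries, EcSAT, a bacterial serine acetyltransferase). AtD-CGS and EcSAT were driven by a maize ubiquitin promoter, and the double lines came from crosses with SSA as the pollen parent, so that HaSSA in all 3 lines descends from SSA. The study pooled different segregants of each cross under each double-line name, and the labels do not tell them apart. SSA is a single transformed line, and the effect of HaSSA and that of any other difference between this line and Taipei cannot be told apart.

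HaSSA is rich in the sulfur amino acids methionine and cysteine, and its synthesis in the seed is a demand on both. Seed storage proteins enter the ER as they are made, where Hsp70 chaperones such as BiP hold them unfolded, J-domain proteins and nucleotide exchange factors drive the chaperone cycle, lectin chaperones retain glycoproteins, and protein disulfide isomerases form their disulfide bonds. Plants short of sulfur raise a set of genes for sulfate transport and assimilation and a group that follows the cysteine precursor O-acetylserine (OAS), known as the OAS cluster in Arabidopsis. The endosperm of rice stores glutelins, globulins and prolamins, the last in bodies formed inside the ER.

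Anti-strand counts in genes came to between 31221925 and 33745683 in SSA libraries and between 33878151 and 35696144 in Taipei libraries. Reads that matched no place in the rice genome made up 5.55% to 6.90% of all reads in SSA and 0.63% to 0.73% in Taipei, with no overlap (difference of the means 5.58 percentage points, two-sided exact permutation test, p = 0.0571, which no split of 3 and 4 libraries can go below). The sequence of these reads is not in the counts, and the part of HaSSA transcripts in them was not tested. The 10 most abundant genes held 8.72% to 10.4% of the gene counts in SSA libraries and 16% to 18.9% in Taipei libraries. By chi-square, SSA 3 stood apart from the other SSA libraries. Over the genes with at least 10 counts, the chi-square per gene was 36.2 between SSA 1 and SSA 3, 38.3 between SSA 2 and SSA 3 and 12.1 between SSA 1 and SSA 2, against 10.2 to 24.6 between Taipei libraries, so no pair of libraries agreed within sampling noise. Over all genes tested, the median absolute log2 difference was 0.178 between SSA 1 and SSA 3 and 0.183 between SSA 2 and SSA 3. It was 0.156 between SSA 1 and SSA 2 and 0.150 to 0.207 between Taipei libraries. By this measure the pairs with SSA 3 lay within the Taipei range. No batch is named on the labels.

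Transcript levels differed between SSA and Taipei seeds at 659 of the 26821 genes tested, and more of them were higher than lower. There were 490 genes higher in SSA (1.83% of genes tested) and 169 lower (0.63%), at an adjusted p under 0.01 in edgeR's quasi-likelihood test, the rule for every call given here. The genes called higher had a median log2 fold change of 0.88, and those called lower a median of -0.74, with a median of 0.00063 over all genes tested. Differences of at least 4-fold were seen at 133 genes called higher and 26 called lower, and differences of at least 16-fold at 55 and 3. Every SSA library lay above every Taipei library at 489 of the 490 genes, and below at all 169 (background 11.1% of genes tested above and 10% below). The calls were made on these same libraries, so the separation follows largely from the choice and is no further evidence for the calls.

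Most of the called genes at the highest levels were lower in SSA. In Taipei, genes called higher had a median level of 9.83 CPM (counts scaled to a common library total). Genes called lower had a median of 31.4 CPM there, with 7.72 CPM over all genes tested. The calls themselves used the Taipei levels, so genes called lower lean to high values there and genes called higher to low values. These medians therefore cannot tell whether the changes fell on different ranges of abundance. Among the 84 genes with an average above 1000 CPM over the pair of lines, 19 were called lower in SSA and 2 higher, BiP1 and PDIL1-1. All genes called lower together held 67462, 63796 and 36802 CPM in SSA 1, 2 and 3, against 177108 to 234300 CPM in Taipei libraries. The genes called higher held 28006 to 37949 CPM in SSA and 14184 to 15628 CPM in Taipei. With scaling to the library size alone, without the TMM factors that allow for such shifts, the median over all genes moved to 0.25 and the calls to 2933 higher and 66 lower, so directions given here are relative to the middle of all genes.

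**Figure D1:**
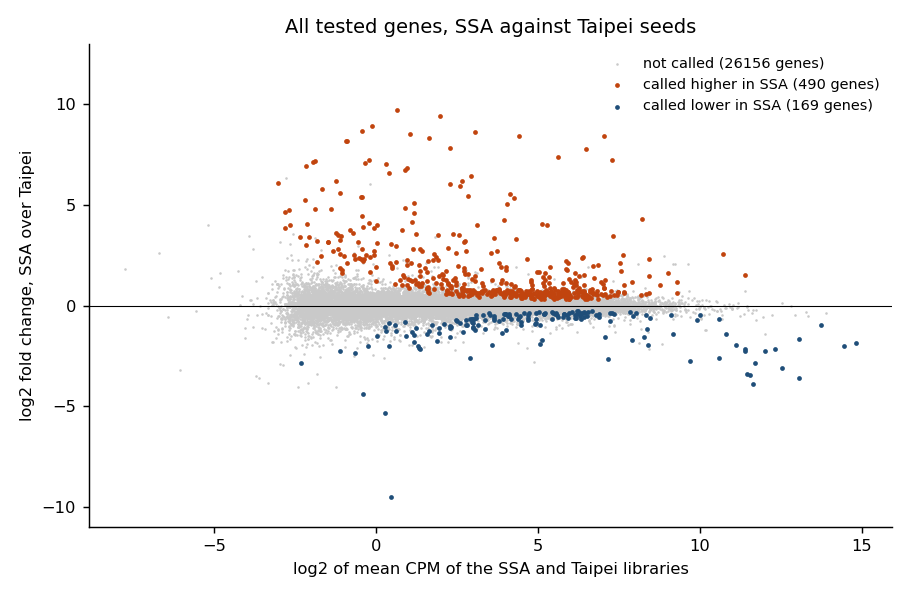
Log2 fold change of SSA over Taipei against the log2 of the mean CPM over both lines, for the 26815 tested genes with a count in either line, coloured by call. The 490 genes called higher spread over low and middle levels, while the genes called lower include most of the called genes at the right end of the axis.

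The SSA libraries were not equally far from Taipei. Taken against the Taipei mean, the 490 genes called higher had a median log2 difference of 0.86, 0.70 and 1.05 in SSA 1, 2 and 3, and the 169 genes called lower had -0.63, -0.70 and -0.94. SSA 3 held the highest SSA value at 367 of the 490 genes and the lowest at 132 of the 169. Without SSA 3 there were 201 genes called higher and 46 lower, all 247 among the 659. The number of calls was 408 without SSA 1, and 404, 379 and 398 without Taipei 1, 2 and 3.

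**Figure D2:**
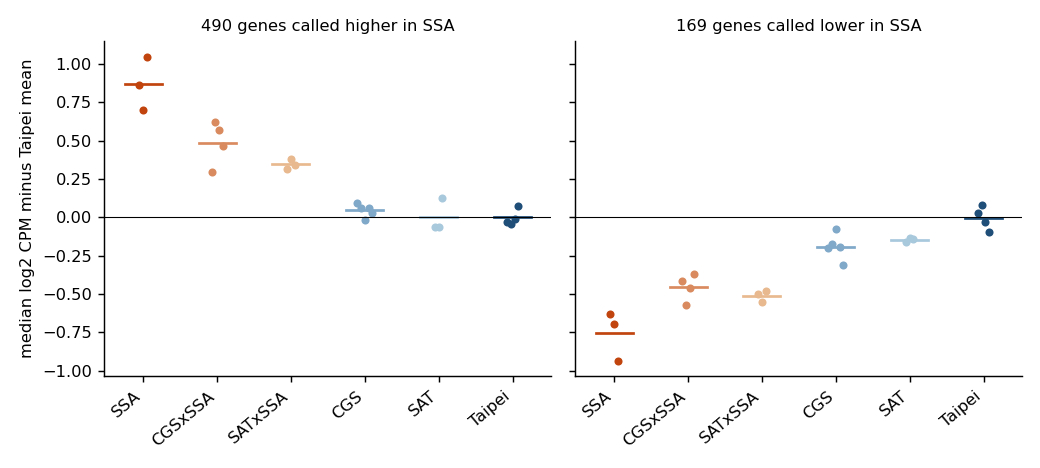
Median log2 CPM of each library minus the Taipei mean, over the 490 genes called higher (left) and the 169 called lower (right) in SSA, by line. Points are libraries and bars line means, and since the genes were chosen by SSA against Taipei, only the other 4 lines are independent of the choice. SSA 3 lies farthest from 0 in both panels.

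Part of the genes for protein folding in the ER rose in SSA seeds. Of the 24 chaperones, co-chaperones and disulfide isomerases that the study lists, 12 rose and 0 fell (edgeR, with 14 higher and 0 lower at an unadjusted p under 0.05, and 13 and 0 called by DESeq2), and the median log2 fold change of the 24 was 0.88. The study kept annotated genes with a high level in at least one of these lines, SSA included, so the list is not independent evidence of a direction. By class, the genes called were all 3 Hsp70 chaperones, the nucleotide exchange factor, 2 of 4 J-domain proteins, 1 of 4 GRP94 genes, the calnexin, 1 of 3 calreticulins, 2 of 7 disulfide isomerases and ERO1. Among the 12 genes not called, log2 fold changes ran from -0.07 to 1.39, and in 19 of all 24 every SSA library exceeded every Taipei library. Over all genes tested, 1.83% were called higher and 11.1% had every SSA library above every Taipei library.

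BiP1 (Os02g0115900), the main ER Hsp70, had 2754, 2286 and 3639 CPM in SSA 1, 2 and 3, against 649, 359, 497 and 465 CPM in Taipei 1 to 4. BiP4 (Os05g0428600), another ER Hsp70, had 158, 129 and 251 CPM in SSA and 0.520, 1.44, 0.821 and 0.444 CPM in Taipei. Both were highest in SSA 3 and lowest in SSA 2, far above the highest Taipei library. Their log2 fold changes were 2.56 ± 0.24 (standard error, adjusted p = 5.35e-07, edgeR) and 7.79 ± 0.44 (adjusted p = 1.33e-09), and 12 genes had a larger fitted rise than BiP4. The gene given as Hsp70 (Os02g0710900) had 291, 260 and 311 CPM in SSA, against 80.8 to 95 CPM in Taipei, a log2 fold change of 1.70 ± 0.10 (adjusted p = 1.64e-10).

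Of the proteins that drive the Hsp70 cycle, 3 of 5 rose. NEF (Os09g0512700), a nucleotide exchange factor, had 62.0, 57.9 and 99.1 CPM in SSA libraries and 3.85 to 5.23 CPM in Taipei libraries. Its log2 fold change was 3.99 ± 0.21 (adjusted p = 7.1e-11). The J-domain co-chaperones DjB6 (Os05g0156500) and DjC15 (Os01g0977200), which stimulate the ATPase of Hsp70, rose by log2 fold changes of 1.74 ± 0.14 and 1.91 ± 0.24. DjB6 had 75.1 to 107 CPM in SSA and 21.9 to 31.4 CPM in Taipei, and DjC15 had 54.3 to 78.5 CPM in SSA and 11.3 to 23.5 CPM in Taipei. Neither range overlapped. The other 2 J-domain genes on the list overlapped between the lines and had log2 fold changes of -0.07 and 0.06 with no call.

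GRP94 (Os06g0716700), the ER Hsp90, had 782, 709 and 850 CPM in SSA, against 278, 250, 257 and 243 CPM in Taipei. Its log2 fold change of 1.60 ± 0.10 (adjusted p = 1.92e-10) was not shared by the other 3 GRP94 genes on the list, whose estimates lay between 0.13 and 0.19 with no call. Of the lectin chaperones, calnexin CNX (Os04g0402100) had 807 to 935 CPM in SSA and 345 to 417 CPM in Taipei, a log2 fold change of 1.18 ± 0.08. Calreticulin CRT (Os07g0246200) had the smallest rise of the 12, with 401 to 424 CPM in SSA and 264 to 281 CPM in Taipei and a log2 fold change of 0.60 ± 0.08. Another CRT gene (Os03g0832200) had 131, 119 and 102 CPM in SSA and 30.6 to 59.9 CPM in Taipei, and its log2 fold change of 1.39 ± 0.36 did not pass the threshold (adjusted p = 0.0291). The libraries of both CRT genes were fully separated. The last CRT gene of the list overlapped, with an estimate of 0.10 and no call.

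Among the enzymes of disulfide formation, PDIL2-3 (Os09g0451500) had 604, 445 and 650 CPM in SSA and 129, 110, 117 and 101 CPM in Taipei. With a log2 fold change of 2.31 ± 0.12 (adjusted p = 2.99e-11) it was the fifth gene of all by p-value. PDIL1-1 (Os11g0199200), the isomerase that in rice endosperm acts on proglutelins, was the most abundant of the folding genes and gained more CPM than any other gene called higher. It had 3725, 3396 and 4799 CPM in SSA, against 1467, 1198, 1313 and 1533 CPM in Taipei, a log2 fold change of 1.53 ± 0.27 (adjusted p = 0.00167). ERO1 (Os03g0733800), the oxidase that recharges these isomerases, had 187, 129 and 199 CPM in SSA and 67.5 to 93.4 CPM in Taipei, a log2 fold change of 1.16 ± 0.18. All 3 were lowest in SSA 2, still above every Taipei library. The other 5 isomerases of the list had log2 fold changes between -0.06 and 0.16 with no call. Without SSA 3, PDIL1-1 had an adjusted p of 0.0192, and the other 11 genes kept their call with any SSA or Taipei library left out. Of 4 regulators of the unfolded protein response, a list written from general knowledge with no annotation at hand to check it, 1 was called higher, with a log2 fold change of 1.68, and the other 3 had estimates from -0.06 to 0.13.

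**Figure D3:**
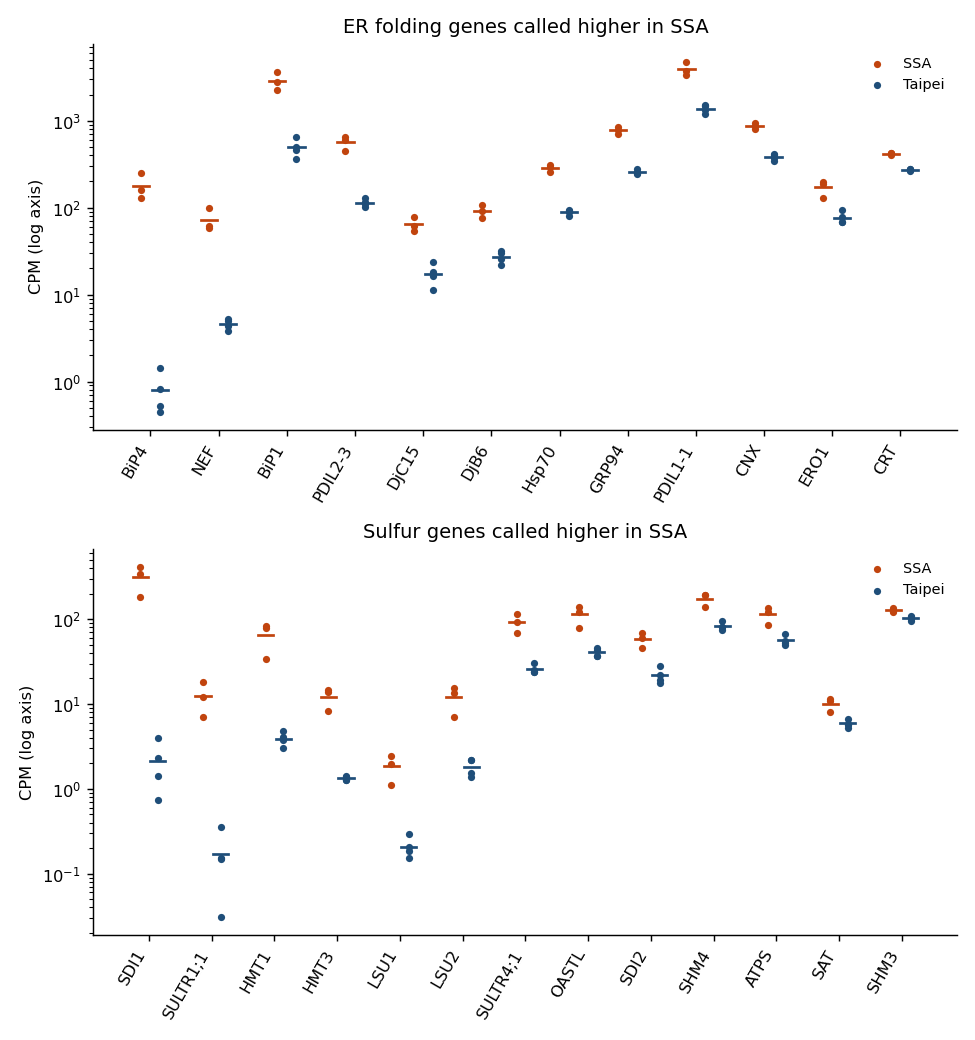
CPM on a log axis of the 12 ER folding genes (top) and 13 sulfur genes (bottom) called higher in SSA, with SSA libraries left of Taipei libraries at each gene. Points are libraries (3 SSA, 4 Taipei) and bars are means. At each gene the lowest SSA point lies above the highest Taipei point, and the widest gaps are at BiP4 (129 against 1.44 CPM) and SDI1 (184 against 4.03 CPM).

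Sulfur genes rose in part. Over the lists of the study for sulfate transport, sulfate assimilation, homocysteine methyltransferases, the OAS cluster, and endogenous CGS and SAT genes, 43 of 46 genes were tested, 13 rose and 0 fell (edgeR, with 20 higher and 3 lower at an unadjusted p under 0.05, and 14 and 0 called by DESeq2), and the median log2 fold change was 0.19. The OAS cluster had 6 of 14 called (median 0.49), homocysteine methyltransferases 2 of 4, sulfate transporters 2 of 13 (median 0.03), sulfate assimilation 2 of 11 (median 0.11) and CGS and SAT genes 1 of 4. The study took most of these genes by annotation or orthology to Arabidopsis and the assimilation enzymes also by their level in at least one of these lines, so that list is not independent evidence of a direction. In 30 of the 43 genes the estimate was above 0. Of all 26821 genes tested, 1.83% were called higher and 13437 had an estimate above 0.

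SDI1 (Os03g0165900), named for its induction under sulfur deficiency, had the largest fold change of the OAS cluster. It had 337, 184 and 417 CPM in SSA 1, 2 and 3, against 4.03, 0.734, 1.40 and 2.28 CPM in Taipei 1 to 4. The lowest SSA library was far above the highest Taipei library, and the spread within each line was wide. Its log2 fold change was 7.22 ± 0.75 (adjusted p = 9.57e-06), and its gain in CPM was the eighth of all 490. SDI2 (Os05g0506000), its relative, had 60.7, 46.1 and 68.3 CPM in SSA and 17.5 to 28.4 CPM in Taipei, a log2 fold change of 1.42 ± 0.21.

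LSU1 (Os10g0509600) and LSU2 (Os02g0129800), small proteins whose Arabidopsis counterparts respond to low sulfur, rose by log2 fold changes of 3.12 ± 0.48 and 2.71 ± 0.39 at low levels. LSU1 had 2.45, 1.10 and 1.98 CPM in SSA and 0.153 to 0.292 CPM in Taipei, and LSU2 had 13.5, 7.12 and 15.3 CPM in SSA and 1.38 to 2.21 CPM in Taipei. SHM4 (Os01g0874900), a serine hydroxymethyltransferase, had 191, 139 and 196 CPM in SSA, against 74.2 to 96.3 CPM in Taipei (log2 fold change 1.08 ± 0.18). SHM3 (Os12g0409000), another, had 122 to 135 CPM in SSA and 96.3 to 109 CPM in Taipei, with the smallest estimate of all 490 genes called higher, 0.31 ± 0.07 (adjusted p = 0.00948). Its adjusted p was 0.0208, 0.0325 and 0.0388 without Taipei 1, 2 and 3, and 0.0185, 0.0197 and 0.105 without SSA 1, 2 and 3. ChaCL1 (Os02g0465900), a ChaC-like gene of a family that breaks down glutathione, had 849, 681 and 879 CPM in SSA and 457 to 541 CPM in Taipei, and its log2 fold change of 0.67 ± 0.20 was not called (adjusted p = 0.0477).

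Of the sulfate transporters, SULTR1;1 (Os03g0195800) and SULTR4;1 (Os09g0240500) were called. In Arabidopsis, SULTR1;1 takes up sulfate with high affinity and SULTR4;1 releases it from the vacuole. SULTR1;1 had 12.1, 7.12 and 18.4 CPM in SSA and 0.357, 0.0306, 0.152 and 0.148 CPM in Taipei, where it was close to absent. Its log2 fold change was 6.18 ± 0.70 (adjusted p = 2.14e-05), and 3.12 with counts from both strands. SULTR4;1 had 92.6, 67.9 and 115 CPM in SSA, against 30.7, 24.2, 23.9 and 24.9 CPM in Taipei, a log2 fold change of 1.82 ± 0.25. SULTR2;1b (Os03g0195500) was fully separated at 5.04 to 6.34 CPM in SSA and 3.54 to 4.44 CPM in Taipei and was not called (0.50 ± 0.15, adjusted p = 0.0551).

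The steps of assimilation moved unevenly. ATPS (Os03g0743900), the ATP sulfurylase that activates sulfate, had 123, 84.6 and 137 CPM in SSA and 49.9 to 67.2 CPM in Taipei, a log2 fold change of 1.03 ± 0.19 (adjusted p = 0.00298). OASTL (Os12g0625000), an enzyme that joins sulfide to OAS to make cysteine, had 121, 79.8 and 141 CPM in SSA and 36.4 to 45.8 CPM in Taipei (1.49 ± 0.19, adjusted p = 5.81e-05). The sulfite reductase gene SiR (Os05g0503300) had 141 to 170 CPM in SSA, against 114 to 131 CPM in Taipei, with no call (0.38 ± 0.11, adjusted p = 0.0356). APRL1 (Os07g0509800) had 271, 192 and 213 CPM in SSA and 155, 60.4, 80.4 and 87.4 CPM in Taipei, with no call (1.23 ± 0.28, adjusted p = 0.0134). Without Taipei 1, its highest Taipei library, the log2 fold change of APRL1 was 1.57 (adjusted p = 0.00128). ATPS lost its call without SSA 1 or 3 or Taipei 2 or 3, with adjusted p-values of 0.0161, 0.0362, 0.0142 and 0.0106.

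Around the amino acids themselves, HMT1 (Os03g0221200) and HMT3 (Os10g0422200) rose, enzymes that make methionine from homocysteine and S-methylmethionine. HMT1 had 79.5, 34.4 and 82.4 CPM in SSA and 3.03 to 4.74 CPM in Taipei (log2 fold change 4.07 ± 0.50, adjusted p = 6.58e-05). HMT3 had 13.7, 8.39 and 14.5 CPM in SSA and 1.27 to 1.41 CPM in Taipei (3.19 ± 0.45, adjusted p = 0.000196). HMT2 (Os12g0607000), by level the main gene of the family, overlapped at 242 to 275 CPM in SSA and 188 to 269 CPM in Taipei. The SAT gene Os05g0533500, which makes OAS, had 10.7, 8.05 and 11.6 CPM in SSA and 5.27 to 6.72 CPM in Taipei (0.78 ± 0.16, adjusted p = 0.00406). The more abundant SAT gene Os03g0133900 had 41.6, 44.1 and 45.0 CPM in SSA, all below the 49.5 to 59.4 CPM of Taipei, with no call (-0.27 ± 0.08, adjusted p = 0.0466). The CGS gene Os03g0376100, of the first step towards methionine, overlapped at 40.9 to 52.7 CPM in SSA and 36.7 to 40.9 CPM in Taipei. Os05g0533500 lost its call without SSA 1 or 3 (adjusted p = 0.0215 and 0.0531) and without Taipei 2, 3 or 4 (0.0138, 0.015 and 0.0138).

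SSA 2 was the lowest SSA library at 12 of the 13 sulfur genes that rose, all but SHM3, and at 11 of the 12 ER folding genes that rose, all but CRT. The same count was not taken over all genes called higher, so whether it is particular to these lists was not tested. Over all 490 genes called higher, SSA 2 also had the smallest median log2 difference from Taipei (0.70, against 0.86 in SSA 1 and 1.05 in SSA 3). The distance of SSA 2 from SSA 1 was wide at HMT1 (34.4 and 79.5 CPM) and narrow at CNX (807 and 861 CPM).

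Storage protein genes were among the abundant genes that fell. None of the 10 genes with the largest falls in CPM has a name in the study, and together they held 50616, 47871 and 26656 CPM in SSA 1, 2 and 3, against 138797 to 186020 CPM in Taipei. The lists used for this group were taken from general knowledge of rice identifiers with no annotation to check them, those of prolamins and seed albumins after the values had been seen, so whole lists are described and single identifiers are not named. Of 9 glutelins 3 were called lower and 0 higher (edgeR, with 6 lower and 0 higher at an unadjusted p under 0.05, and 3 and 0 called by DESeq2), with log2 fold changes of all 9 between -2.01 and -0.05 and a median of -0.53. Of all genes tested, 0.63% were called lower. Summed, the glutelins held 49030 to 69452 CPM in SSA and 116417 to 151791 CPM in Taipei. The seeds were taken whole, and fewer cells of a type and less RNA per cell cannot be told apart in them.

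Of the 7 seed albumins (the RA family, cysteine-rich proteins of the rice grain), 6 were called lower (0.63% over all genes tested). The seventh had -1.20, and the median log2 fold change of the 7 was -2.24. Their sum was 2133 to 9141 CPM in SSA and 21837 to 34571 CPM in Taipei. Of these, 4 formed a run of neighbouring tested identifiers on chromosome 7 that were all called lower, at 2986 CPM summed in SSA and 15335 CPM in Taipei. No other run of at least 3 neighbouring identifiers was called lower, and chromosome 7 had the highest share of genes called lower (1.34%, against 0.394% to 1.02% on the other chromosomes). Only 3 of the 7 were called without Taipei 2. With SSA and Taipei fitted alone, edgeR called 0 of the 7 (6 lower at an unadjusted p under 0.05) and DESeq2 called 6 lower.

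Prolamins split by position. Of 16 identifiers, 5 were called lower and 1 higher (0.63% and 1.83% over all genes tested), with log2 fold changes from -3.91 to 4.32. The 9 that do not lie on chromosome 5 held 7629, 7389 and 3959 CPM in SSA, against 38732 to 52851 CPM in Taipei, and all 5 falls were among them. The 7 on chromosome 5 held 5588, 3203 and 6623 CPM in SSA and 785 to 1741 CPM in Taipei, and all 7 had log2 fold changes of at least 1.89, of which 1 was called. These 7 held 1405 to 3479 CPM in CGS, which lacks HaSSA and overlapped SSA. In CGSxSSA, which carries HaSSA, they held 1102 to 7548 CPM. Reads that match several places are in no gene count, so near-identical prolamin copies are counted only where their sequence is their own, and the split between copies is uncertain. With SSA and Taipei fitted alone, 2 of the 16 were called.

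Starch synthesis genes had small estimates below 0. All 10 of the list lay between -0.47 and -0.11, with 0 called by edgeR (4 lower at an unadjusted p under 0.05) and 1 called lower by DESeq2, and with a median of -0.22, which turned to 0.04 when libraries were scaled to size alone. In 7 of the 10 every SSA library lay below every Taipei library, as at 10% of all genes tested. Their sum was 21085 to 25108 CPM in SSA and 26909 to 32850 CPM in Taipei. Of the markers of other seed tissues, from lists also written after the values were seen, 0 were called by edgeR or DESeq2. The 10 green tissue markers summed to 5596 to 6002 CPM in SSA and 4855 to 5364 CPM in Taipei (median log2 fold change 0.21, 9 of 10 above 0, 2 higher at an unadjusted p under 0.05), and the 4 embryo and aleurone markers to 2403 to 3478 CPM in SSA and 2932 to 4206 CPM in Taipei (median -0.32, all 4 below 0, 0 at an unadjusted p under 0.05). No marker list was at 0 in any library, and the part of tissue makeup in the other results was not tested.

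**Figure D4:**
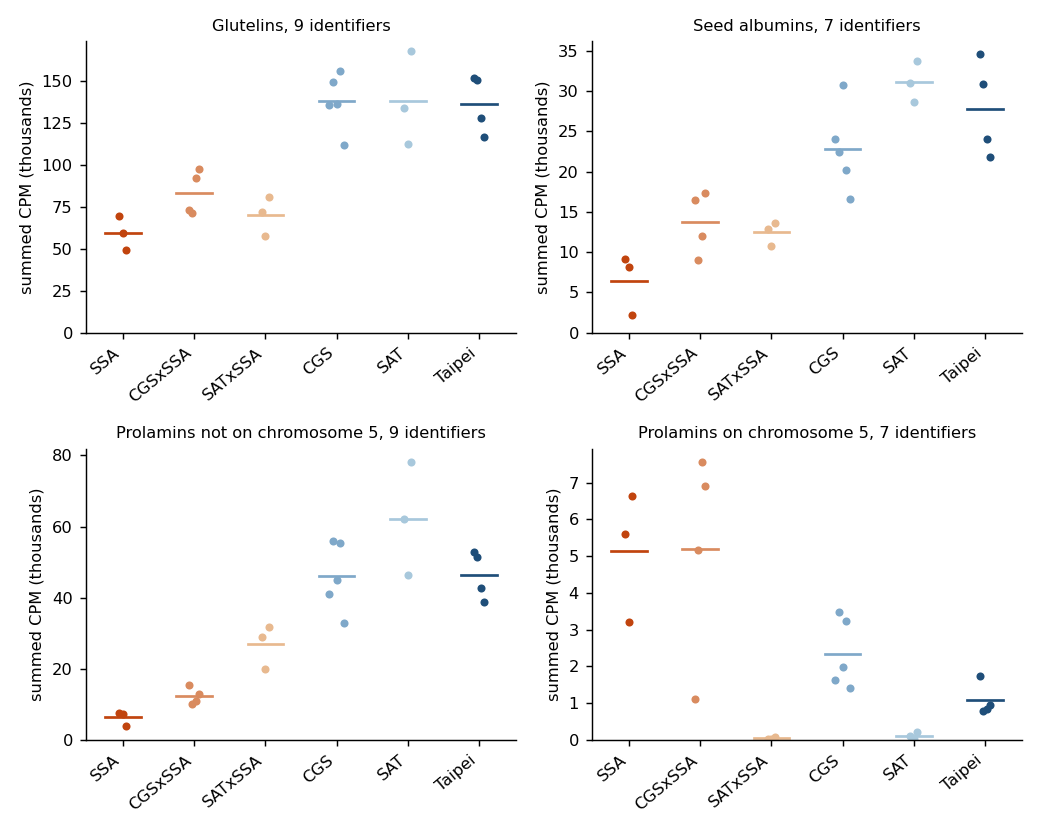
Summed CPM, divided by 1000, of glutelins, seed albumins, and prolamins away from and on chromosome 5, in each library by line, with bars at line means. SSA libraries lie below Taipei libraries in the first 3 panels and above them in the panel of chromosome 5, where SAT and SATxSSA lie lowest. In that last panel CGS and SSA libraries overlap.

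HaSSA inherited from SSA was also measured beside another transgene, in libraries that share none with SSA or Taipei. The question was which of the differences of SSA from Taipei recurred. CGSxSSA against CGS gave 488 genes higher (1.82% of genes tested) and 550 lower (2.05%), and SATxSSA against SAT gave 427 higher (1.59%) and 713 lower (2.66%). With library size alone the splits were 1021 higher and 150 lower for CGSxSSA and 4235 higher and 384 lower for SATxSSA, with medians over all genes of 0.15 and 0.30. Which direction held more calls also turned with single libraries. CGSxSSA against CGS had 376 higher and 304 lower without CGSxSSA 1, 350 and 325 without CGSxSSA 3, 346 and 295 without CGSxSSA 4, and 363 and 358 without CGS 4. SATxSSA against SAT had 122 higher and 107 lower without SATxSSA 2, 131 and 139 without SATxSSA 1, 79 and 91 without SAT 1, 162 and 325 without SAT 2 and 304 and 405 without SAT 3. Of the 490 genes higher in SSA, 455 (92.9%) had the same direction in CGSxSSA against CGS and 176 were called in it, and 387 (79.0%) had the same direction in SATxSSA against SAT with 92 called. Of the 169 genes lower in SSA, 148 and 140 kept their direction and 31 and 26 were called. Calls in the opposite direction were made at 1 and 1 of the 490 genes, and at 3 and 6 of the 169. In both comparisons 62 of the 490 genes were called higher as in SSA, and 7 of the 169 lower. Shared directions and calls in both comparisons were not counted over all genes tested. The median log2 fold change of the 490 genes was 0.37 in CGSxSSA and 0.29 in SATxSSA, where it was 0.88 in SSA by the comparison that chose them.

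ER folding genes recurred in both backgrounds and sulfur genes in that of AtD-CGS. All 12 folding genes that rose in SSA also rose in CGSxSSA against CGS, and 10 rose in SATxSSA against SAT. The uncalled genes there were PDIL1-1, with an estimate of 1.05 (adjusted p = 0.0239) beside 1.05 (adjusted p = 0.00856) in CGSxSSA against CGS, and ERO1, with 0.33 (adjusted p = 0.268). The 13 sulfur genes rose at 11 in CGSxSSA against CGS and at 0 in SATxSSA against SAT, where their log2 fold changes lay between -1.14 and 0.47 (edgeR, with 1 higher and 1 lower at an unadjusted p under 0.05, and 0 called by DESeq2). SDI1, for example, had 0.250 to 0.543 CPM in SATxSSA and 0.366 to 0.703 CPM in SAT. The rise was uneven among CGSxSSA libraries. The 43 sulfur genes tested summed to 2671 CPM in CGSxSSA 1 and 3718 to 4081 CPM in CGSxSSA 2 to 4. In CGS libraries they summed to 2745 to 2992 CPM. The lowest CGSxSSA library had 20.7 CPM of SDI1, where the median was 245 CPM, and CGS libraries had 1.26 to 5.73 CPM. The change in the HaSSA effect when EcSAT was present, tested as an interaction, was called lower at LSU2 (-3.86, adjusted p = 0.0064) and SULTR4;1 (-2.12, adjusted p = 0.0073) and not at the other 11, among them SDI1 (-7.64, adjusted p = 0.086). Over all genes this difference was called at 26 higher (0.0969%) and 41 lower (0.153%), and that with AtD-CGS at 32 higher (0.119%) and 70 lower (0.261%), or 20 and 80 with library size alone. Both differences contain the SSA and Taipei libraries with turned sign, so genes chosen as higher in SSA lean to negative values in them.

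Set against CGS and SAT together, SSA had 1534 genes higher (5.72%) and 981 lower (3.66%), or 6785 and 247 with library size alone (median 0.27). This comparison shares the SSA libraries with that against Taipei and replaces only the lines without HaSSA. In it, the log2 fold changes of the 12 folding genes lay between 0.74 and 7.89, and those of the 13 sulfur genes between 0.31 and 7.96.

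Some of the genes that differed were close to the floor in one of the lines. At 67 genes called higher by at least 3 on the log2 scale, every Taipei library was under 1 CPM, limits chosen after the values were seen. No minimum was set for SSA, and LSU1, at 1.10 to 2.45 CPM in SSA, is among the 67. On a log scale, CGSxSSA lay nearer to SSA than to Taipei at 45 of these genes, SATxSSA at 33, SAT at 14 and CGS at 10. At 11 of the 67, both double lines lay nearer to SSA while CGS and SAT lay nearer to Taipei, and at 10 neither double line lay nearer to SSA. Nearness was not counted over all genes tested. In the other direction, 3 genes were called lower by at least 3 on the log2 scale with every SSA library under 1 CPM.

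Identifiers without a name in the study show the kinds of pattern. Os03g0115800 had 257, 248 and 274 CPM in SSA, against 0.227, 0.642, 0.791 and 1.27 CPM in Taipei (8.44 ± 0.26, adjusted p = 1.38e-14). It was as high in CGSxSSA (236 to 300.3 CPM), SATxSSA (247 to 308 CPM) and SAT (268 to 352 CPM), and near absent in CGS (0.296 to 0.843 CPM), so SAT was high without HaSSA. Os07g0162450 had 44.5, 43.4 and 40.5 CPM in SSA and 0.0325 to 0.266 CPM in Taipei (8.40 ± 0.46, adjusted p = 3.91e-10). It was high in SATxSSA (40.1 to 46.9 CPM) and low in CGSxSSA (0.0613 to 0.819 CPM), which carries HaSSA as well.

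Os04g0454900 had 0 counts in all 3 SSA libraries, against 81 to 97 counts in Taipei libraries (2.63, 2.97, 2.92 and 2.46 CPM), at least 99.1-fold lower in SSA with a floor of 3 counts over the line (adjusted p = 3.48e-11). It was present in both double lines, at 1.61 to 1.93 CPM in CGSxSSA and 2.73 to 3.77 CPM in SATxSSA. Os11g0535525 was among the largest falls of an abundant gene, with 583, 815 and 99.7 CPM in SSA, against 5576, 6621, 4999 and 4742 CPM in Taipei (-3.46 ± 0.54, adjusted p = 0.000647). It stood at 669 to 2125 CPM in CGSxSSA and at 4197 to 7353 CPM in SATxSSA. With SSA and Taipei fitted alone its adjusted p was 0.0451.

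**Figure D5:**
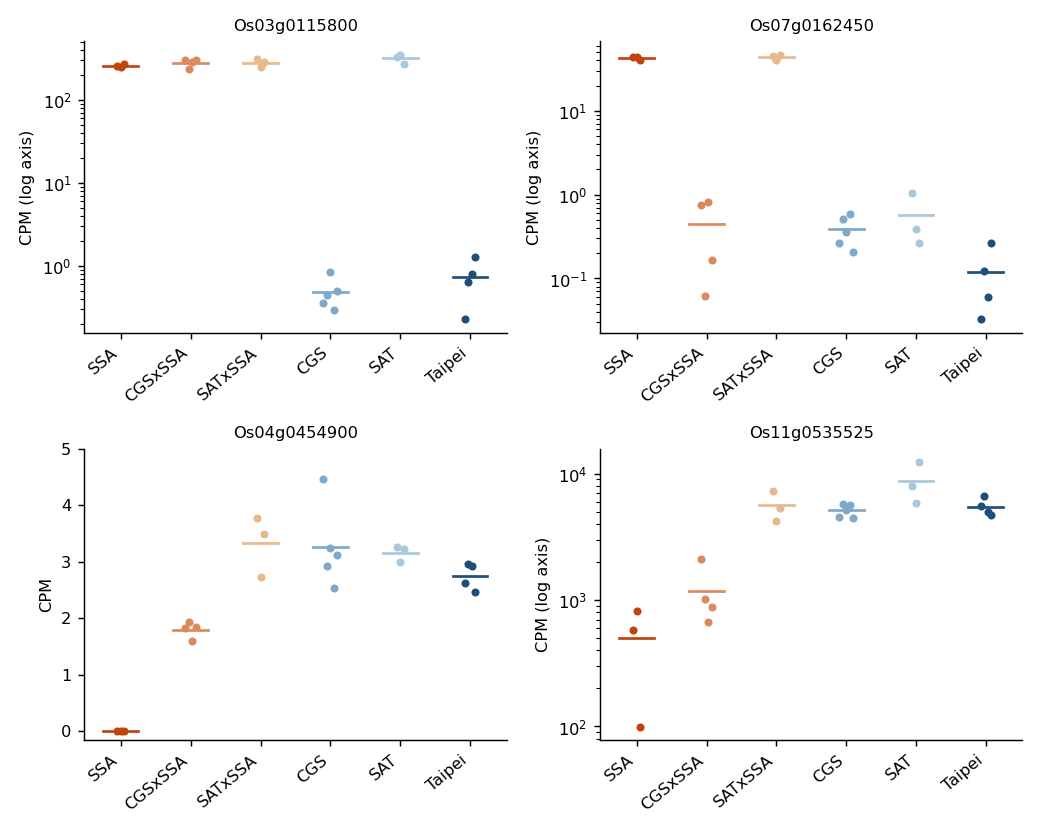
CPM of 4 identifiers in all 22 libraries by line, on log axes except for Os04g0454900, with bars at line means. Os03g0115800 is high in every line but CGS and Taipei, Os07g0162450 is high in SSA and SATxSSA, and Os04g0454900 is at 0 in SSA only.

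Called genes lay on all 12 chromosomes, as read from the identifiers, with 1.16% to 2.39% of tested genes called higher and 0.394% to 1.34% called lower. Chromosome 5 had the highest share of genes called higher.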

How the data were processed

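The authors depleted seed RNA of rRNA, sequenced it strand by strand from single ends and mapped the reads with STAR 2.7.1a on the IRGSP-1.0 assembly of rice. Each deposited file gives raw read counts of 38866 genes for both strands together and for each strand, below 4 totals of reads counted in no gene. Those totals entered neither library sizes nor tests and served only for the shares of reads. Besides unmapped reads, reads with several matches made up 15.3% to 17.4% of all in SSA and 13.6% to 14.6% in Taipei, those outside genes 13.4% to 14.1% in SSA and 12.6% to 14.4% in Taipei, and ambiguous ones 0.0455% to 0.0488% in SSA and 0.0441% to 0.0477% in Taipei. Reads with several matches are in no gene count, and the transgenes are not counted in these files. The anti-strand column, which the study used, was read for all 22 libraries, and groups came from the labels. Each library is a plant of its own.

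Counts were scaled with TMM. All libraries entered 1 edgeR fit (version 4.0.16, R 4.3.3, robust quasi-likelihood, with the line as factor) over the 26821 genes left by filterByExpr. A gene was called at a two-sided adjusted p (Benjamini-Hochberg, every tested gene) under 0.01. Levels are CPM on library sizes adjusted by the TMM factors. A standard error is the log2 fold change divided by the root of its F statistic. The functions were tested on simulated data. Same-numbered SSA and Taipei libraries did not deviate together (correlations -0.08 to 0.06), so the numbers do not pair them.

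The members and lists were chosen with earlier results of these data known. Named genes are those the study gives by identifier, of which 3 had too few counts for a test. The rule also asked for the 15 largest changes by fold and the 10 by CPM in each direction. Most of these have no name in the study and none could be looked up, so only 4 such identifiers appear, chosen with their values in view. Lists that needed gene descriptions were not run. Glutelins, starch synthesis and unfolded protein response regulators were listed from general knowledge, and so were prolamins, seed albumins, green tissue, and embryo and aleurone, these after the values were seen. No sequence table of this annotation was at hand, and none is printed. Alternatives were DESeq2 1.42.0, RLE factors, library size alone, no filter, only genes with a mean over 100 normalized counts and both strands together. Further ones were a threshold of 0.05, the compared lines alone and the replicate number as a block. Each library was also left out in turn, in the comparisons that contain its line. The fit without SATxSSA 1, in which 20.3% of reads were in no gene, was added after seeing the data.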

Additional observations from a re-analysis of the deposited data

Results flagged for a closer look

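Among the Taipei libraries, SULTR4;1 (Os09g0240500) had 1 value far from the others. Taipei 1 stood at 30.7 CPM and the other 3 between 23.9 and 24.9 CPM, so that its gap to the nearest took up 0.855 of the whole range. Of 46 sets of 4 or 5 values examined, nearly all of them from Taipei, it was the only one marked, and chance alone marks about 1 set in 20.

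By the interaction term of the edgeR fit, SATxSSA minus SAT differed from SSA minus Taipei at 4 of the named genes. This term contains the SSA and Taipei libraries with turned sign. Os03g0115800 and Os04g0454900 were chosen with their values in view, so their terms are not independent of the choice. The term was negative at SULTR4;1 (log2 difference -2.12, adjusted p = 0.0073), at LSU2 (Os02g0129800, -3.86, adjusted p = 0.0064) and at Os03g0115800 (-8.62, adjusted p = 6.33e-13). It was positive at Os04g0454900 (9.61, adjusted p = 1.2e-09). At Os03g0115800 the SAT libraries without HaSSA were already at 268 to 352 CPM. At Os04g0454900 the term rests on SSA libraries at 0 counts, and its size depends on the fit. Both double lines, which carry HaSSA, held this gene at 1.61 to 1.93 CPM (CGSxSSA) and 2.73 to 3.77 CPM (SATxSSA). With AtD-CGS in place of EcSAT, the term was called at Os07g0162450 (-8.15, adjusted p = 1.2e-05), which stayed under 1 CPM in CGSxSSA, and at Os04g0454900 (8.68, adjusted p = 2.37e-08). Os07g0162450 was also chosen with its values in view.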

How the results depend on the processing

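For SSA against Taipei, the 659 calls became 1110 with DESeq2 (380 lower, 654 shared), 2999 with library size alone (2933 higher and 66 lower, where 74.4% higher became 97.8%), 1534 at a threshold of 0.05 (1022 higher and 512 lower) and 685 without SATxSSA 1. For CGSxSSA against CGS, SATxSSA against SAT, the difference with EcSAT and that with AtD-CGS, DESeq2 called 1699, 2379, 229 and 309 genes, against 1038, 1140, 67 and 102 with edgeR, and the threshold of 0.05 gave 2431, 3627, 176 and 363. For SSA against CGS and SAT, the 2515 calls became 5319 at 0.05 and 7032 with library size alone, which gave 4619 for SATxSSA against SAT. With a mean above 100 normalized counts the differences were called at 38 (EcSAT) and 67 (AtD-CGS) genes. With only the lines compared in the fit, SSA against CGS and SAT gave 1406 calls, CGSxSSA against CGS 428 and SATxSSA against SAT 667.

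The replicate numbers are shared labels only. With the replicate number as a block, SSA against Taipei had 418 calls (313 higher and 105 lower), CGSxSSA against CGS 640 and the difference with AtD-CGS 48. ATPS, the SAT gene Os05g0533500 and SHM3 were past the threshold without the block and not with it (adjusted p = 0.0127, 0.0105 and 0.0327).

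Each library of the lines compared was left out in turn. Calls then ranged from 247 to 638 for SSA against Taipei (201 to 517 higher and 46 to 157 lower). They ranged from 887 to 2755 for SSA against CGS and SAT, and from 641 to 1066 for CGSxSSA against CGS. For SATxSSA against SAT they ranged from 170 to 1353. For the differences with EcSAT and AtD-CGS they ranged from 44 to 94 and from 46 to 122. The difference in unmapped reads ran from 5.26 to 5.93 percentage points.

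The log2 fold changes of 37 genes, those named with their values in each line (33 of the study's and the 4 identifiers), were followed over the alternatives, and 0 of them turned sign. The other listed genes, many with estimates near 0, were not followed one by one. There were 366 values that left out no SSA or Taipei library, those of the fit without SATxSSA 1 included. Of these, 342 stayed on their side of the threshold, 15 newly passed it and 9 no longer did. Among the 259 that left out an SSA or Taipei library, the counts were 242, 1 and 16. The cause of these changes was not tested. Genes near 0 in a line, such as SULTR1;1 in Taipei, rest on few counts per library.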
